A study of Gallus gallus with 16 samples.

Results

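The 100 genes described here are those with the highest RNA level in double-positive (DP) cells of the chick vagal region at Hamburger-Hamilton stage 18 (HH18), relative to 7 other sorted cell groups. They were taken from 24881 genes in the deposited count table. Each count was divided by its library's column sum, scaled to counts per 1000000 (CPM) and transformed to log2(CPM + 1), and the values of the 2 libraries of each group were averaged. A gene's score is its mean in HH18 DP cells minus the highest mean among the other 7 groups. Genes on chromosomes W, Z and 16 (1461 genes) and a further 105 genes with a genomic span of 300 kb or more were left out. Of the 23315 genes that remained, 13364 had a count in HH18 DP cells, 1063 had a score above 0 and the 100 with the highest score were taken. The HH18 DP levels chose these genes, so every value that sets HH18 DP cells against another group is a description and carries no test.

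All embryos were wild-type and were electroporated with 2 enhancer reporters, NC2 and E2. Their vagal regions were later dissected and dissociated, and the cells were sorted by fluorescence. The labels name citrine as the fluorescent protein of both reporters. DP cells had both signals, E2 cells the E2 signal without that of NC2, and negative cells neither. The 8 groups were HH10 negative, HH10 E2, HH18 negative, HH18 E2, HH18 DP, HH25 negative, HH25 E2 and HH25 DP, with 2 libraries each. The stage called HH10 here is given as HH10 by the sample records but as HH12 by the series text and the column names. Reporters were introduced at HH4 in the HH10 groups and at HH8 or HH9 in the HH18 and HH25 groups, so stage and time of electroporation cannot be told apart. Nothing in the labels ties the libraries of a pair to different embryos, so the spread between them may be technical. DP and E2 cells are defined by reporter signal alone, and negative cells are all sorted cells without it.

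Neural crest cells arise at the dorsal edge of the neural tube and migrate away from it. The vagal crest, next to the hindbrain, is known to supply most neurons and glia of the gut and to contribute to the outflow tract of the heart. NC2 is an enhancer of FOXD3, which encodes a transcription factor of early crest cells. E2 is an enhancer of SOX10, which encodes a transcription factor of migrating crest and its glial descendants. A fluorescent reporter marks cells that took up the construct and used the enhancer, and the protein can outlast the enhancer's activity. Electroporation reaches only part of a tissue, so cells without signal can include crest cells that took up no construct.

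The count table carries Ensembl identifiers, exon coordinates on the galGal5 build and no gene names. None could be added, because 0 of the identifiers matched the reference table of 25635 chicken genes. The genes are therefore given by identifier and position, without a function, and the labelled cell types could not be checked against marker genes, FOXD3 and SOX10 included. Library totals ran from 4032540 to 45313160 counts, with 10838093 and 19164931 in HH18 DP cells. Genes with counts numbered 11693 and 13010 in the HH10 E2 libraries and from 12472 to 15661 in the others. Across genes, which are not independent replicates, log2 CPM of the HH18 DP libraries correlated at 0.881, within the range of 0.843 to 0.960 over the 8 groups.

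Scores ran from 2.40 to 0.72 log2 units, with a median of 0.97. The highest score belonged to ENSGALG00000045817 (chromosome 1, minus strand, 12838227 to 12916687, with 21 exon intervals). It had 24.1 and 31.2 CPM in the HH18 DP libraries, 4.79 and 3.99 CPM in HH18 E2 cells and 1.98 and 6.70 CPM in HH25 DP cells. Both HH18 DP libraries thus stood above every other library. The mean of 27.6 ± 5.04 CPM was 6.30 times that in HH18 E2 cells, the next group. Here and below, ± on a CPM value is the SD of the 2 libraries (n = 2). On a log2 fold change or difference, ± is a standard error (SE) from the edgeR fit. The gene was listed at 0 in both HH10 E2 libraries, at 0.443 and 0.660 CPM in HH10 negative cells and at no more than 2.35 CPM in the negative and E2 cells of HH25. It overlaps ENSGALG00000008298 on the other strand, which had 28.6 ± 8.58 CPM in HH18 DP cells and 166 ± 0.216 CPM in HH25 DP cells, where ENSGALG00000045817 was at 4.34 ± 3.34 CPM. The strand setting of the counting is not given in the sources used here, and whether the exons of the pair overlap was not determined. Reads of any shared exon bases may therefore be mixed.

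The next 3 genes differed more between the HH18 DP libraries. ENSGALG00000002766 on chromosome 11 (1946273 to 1950045) had 16.9 and 6.16 CPM there, and its next group by the mean of log2 values was HH18 negative cells at 1.04 and 1.98 CPM. HH10 E2 cells had 0 and 4.37 CPM, a higher mean CPM resting on 1 library. ENSGALG00000012061 on chromosome 7 (28341394 to 28353184) had 29.3 and 12.8 CPM, against 3.51 and 4.46 CPM in HH18 negative cells. HH25 negative cells had 0 and 8.96 CPM of it, again a higher mean CPM resting on 1 library. ENSGALG00000033815 on chromosome 15 (8257474 to 8258854) had 4.61 and 15.2 CPM, against 0.452 and 2.80 CPM in HH18 E2 cells. In these 3 genes 1 library was over 2 times the other, and both still lay above all other 14 libraries. ENSGALG00000033815 lies within ENSGALG00000006363 on the other strand, which had 34.3 and 15.7 CPM in the HH18 DP libraries.

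ENSGALG00000008615 (chromosome 5, minus strand, 24709933 to 24791051, with 29 exon intervals) ranked next and had 71.8 and 87.2 CPM in HH18 DP cells, above all other 14 libraries. Its next groups were HH25 DP cells, at 19.2 ± 1.08 CPM, and HH18 E2 cells, at 18.6 and 12.4 CPM. The other 3 of the first 8 were high in library 1 and low in library 2. ENSGALG00000011551 on chromosome 4 (50344974 to 50350757) had 7.66 and 1.98 CPM, ENSGALG00000021286 on chromosome 14 (1031866 to 1035226) 10.5 and 2.14 CPM, and ENSGALG00000016833 on chromosome 1 (137595069 to 137603553) 18.4 and 3.34 CPM. Their lower library still had 38, 41 and 64 counts. In the other 14 libraries each of these 3 genes stayed at or below 1.98 CPM.

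At the threshold the scores were close together. ENSGALG00000008911 (rank 99), on chromosome 17, had 8.40 and 3.44 CPM in HH18 DP cells and 2.44 and 3.42 CPM in HH18 E2 cells. ENSGALG00000012550 (rank 100, score 0.72), on chromosome 1, had 980 and 964 CPM against 488 and 710 CPM in HH18 negative cells. Just outside, ENSGALG00000039658 (score 0.72) had 21.4 and 0.0522 CPM, and ENSGALG00000017863 (score 0.71) had 3.69 and 0.522 CPM. The ranking therefore set even differences beside differences carried by 1 library.

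**Figure D1:**
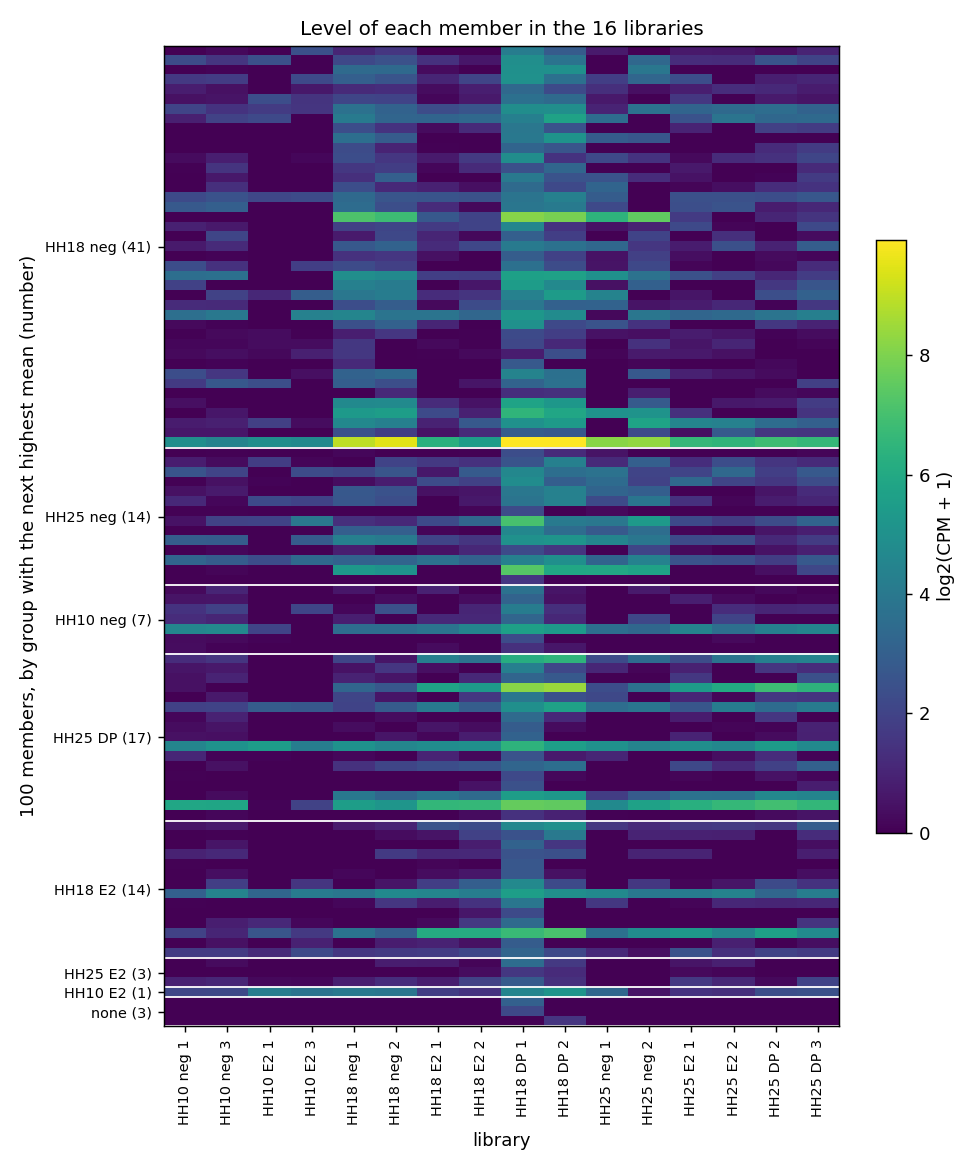
Log2(CPM + 1) of the 100 genes (vertical axis, sorted by the group with the next highest mean and then by score) in the 16 libraries (horizontal axis), with brighter colour for a higher level. The HH18 DP columns are the brightest for most genes, with library 1 (median 13.1 CPM) above library 2 (median 5.01 CPM), and the HH18 negative columns (medians 2.08 and 2.11 CPM) come next.

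The pair of HH18 DP libraries did not carry the genes equally. In 52 of the 100 genes both libraries lay above all other 14 libraries. Over the 23315 genes ranked, 0.609% did so, and over the 13364 with a count in HH18 DP cells 1.06%; since the score uses the same values, nothing is read from that contrast. In 41 genes only library 1 lay above all others, in 6 only library 2, and in 1 gene neither. Library 1 was the higher of the pair in 73 genes, beside 52.0% of all genes with a count there, and the median log2 difference between the pair was 0.84 in the 100 genes and 0.05 in all those genes. In 25 genes library 1 was at least 4 times library 2 (on CPM + 1), and the reverse was seen in 0 genes. Of the 100 genes, 13 had no count in library 2 and 1 had none in library 1.

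The 52 genes that both libraries set apart had medians of 17.6 and 15.5 CPM in the HH18 DP libraries, and 33 of them had a mean of 10 CPM or more. The other 48 had medians of 8.21 and 1.67 CPM. The ranges overlapped, with HH18 DP means from 1.05 to 972 CPM in the 52 and from 0.965 to 109 CPM in the 48. Being set apart is defined by the same HH18 DP levels, so nothing is read from the difference in medians. No count was found for 3 genes in any library outside HH18 DP cells, and each was counted in 1 library of the pair. They were ENSGALG00000014362, with 79 counts in library 1, ENSGALG00000038524, with 38 counts in library 1, and ENSGALG00000003899, with 37 counts in library 2, all named after their values were seen. Ranking without library 1 kept 43 of the 100 genes and ranking without library 2 kept 50.

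**Figure D2:**
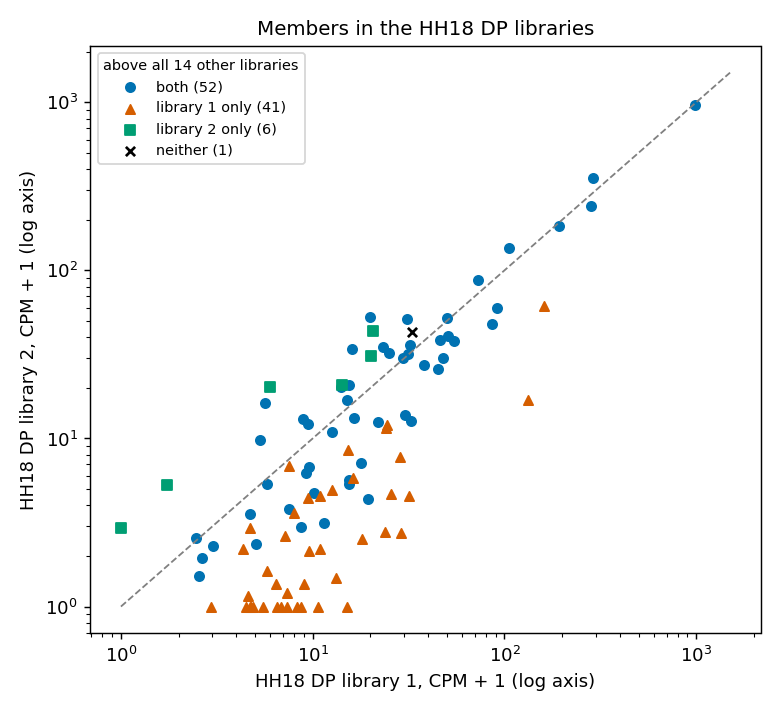
Levels of the 100 genes in HH18 DP library 1 (horizontal axis) and library 2 (vertical axis), both as CPM + 1 on log axes, with a colour and symbol for whether both, 1 or neither library lay above all other 14 libraries. Of the 100 genes 73 lie below the dashed line of equality, and 25 lie far below it, with library 1 at least 4 times library 2.

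The next highest group divided the genes into those whose second-highest level was in negative cells (62 genes) and those whose second-highest level was in labelled cells (35 genes), beside the 3 without a count elsewhere. HH18 negative cells came next for 41 genes, HH25 DP cells for 17, HH18 E2 cells for 14, HH25 negative cells for 14, HH10 negative cells for 7, HH25 E2 cells for 3 and HH10 E2 cells for 1. Of the 52 genes that both HH18 DP libraries set apart, 27 had HH18 negative cells next and 11 had HH25 DP cells next. The same division over all genes ranked was not counted, so nothing is read from these numbers. Summed over the 100 genes, the level was 3729 and 3136 CPM in the HH18 DP libraries and 1219 and 1350 CPM in the HH18 negative libraries. It was 823 and 1057 CPM in HH25 negative, 640 and 615 CPM in HH25 DP, 518 and 488 CPM in HH18 E2, 477 and 501 CPM in HH25 E2, 246 and 280 CPM in HH10 negative and 156 and 177 CPM in HH10 E2 cells. A single gene, ENSGALG00000012550, made up 488 and 710 CPM of the sums in HH18 negative cells and 980 and 964 CPM of those in HH18 DP cells. In RNA from pooled sorted cells, fewer cells of a type and less RNA per cell cannot be told apart.

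Among the genes next highest in labelled cells, ENSGALG00000008896 (chromosome 7, minus strand, 14159350 to 14200241, with 5 exon intervals) was the most abundant per kilobase of exon, at 338 CPM per kb in HH18 DP cells. Its libraries had 288 and 352 CPM in HH18 DP, 113 and 85.6 CPM in HH25 DP, 53.2 and 40.9 CPM in HH18 E2 and 43.3 and 64.3 CPM in HH25 E2 cells. Negative cells had 8.45 and 5.46 CPM at HH18, 4.15 and 11.9 CPM at HH25 and 0.354 and 0 CPM at HH10. The order was thus HH18 DP, HH25 DP, then the E2 cells of both later stages, whose libraries overlapped, then negative cells. In HH10 E2 cells it was listed at 0, and HH18 E2 cells were at least 905-fold higher, taking 3 counts over the empty group as its floor (edgeR quasi-likelihood test, adjusted p = 0.00147). It was also higher in HH18 than in HH10 negative cells, at 6.95 ± 2.12 against 0.177 ± 0.251 CPM, with a log2 fold change of 5.56 ± 1.14 (SE, adjusted p = 0.0252). The latter call ended without HH10 negative library 3 (log2 fold change 4.37) or either HH18 negative library, and without HH10 negative library 1 the value was 10.30.

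ENSGALG00000008615, described above, was likewise listed at 0 in HH10 E2 cells and was at least 298-fold higher in HH18 E2 cells (15.5 ± 4.37 CPM, adjusted p = 0.00273). In negative cells it had 1.42 and 1.88 CPM at HH10, 3.25 and 0.496 CPM at HH18, and 3.65 and 10.1 CPM at HH25. ENSGALG00000036412 (chromosome 2, plus strand, 42607307 to 42762507, with 5 exon intervals) had 191 and 182 CPM in HH18 DP, 122 and 95.9 CPM in HH25 DP and 95.2 and 97.4 CPM in HH18 E2 cells. It was also present in negative cells, at 57.8 and 57.1 CPM at HH10 and 45.9 and 35.5 CPM at HH18, while HH10 E2 cells had 0.0805 and 2.85 CPM. The HH10 E2 cells were therefore the low group for this gene, and HH18 E2 cells stood above them by 5.99 ± 0.91 on the log2 scale (adjusted p = 0.00260). This fold depends on single HH10 E2 libraries, at 10.08 without library 3 and 5.21 without library 1. Its last bases overlap the first of ENSGALG00000034585 on the same strand, which was at 32.9 ± 0.161 CPM in HH10 E2 and 8.49 ± 0.911 CPM in HH18 DP cells.

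ENSGALG00000016680 (chromosome 3, minus strand, 108690400 to 108715816, with 8 exon intervals) had 104 and 134 CPM in HH18 DP and 68.0 and 70.3 CPM in HH18 E2 cells. The other groups were lower, from 49.0 and 26.1 CPM in HH25 DP cells to 2.92 and 1.02 CPM in HH10 negative cells. HH18 E2 cells exceeded HH10 E2 cells, at 5.07 and 2.14 CPM, by 4.28 ± 0.81 on the log2 scale (adjusted p = 0.00919). The difference was 5.14 without HH10 E2 library 1 and 3.74 without library 3. An antisense gene within it, ENSGALG00000033860, stayed at a mean of 0.522 CPM or less in all groups. With a fit of only the 4 HH10 and HH18 E2 libraries, the calls of these 4 genes between HH18 and HH10 E2 cells ended.

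Less abundant genes next highest in labelled cells were ENSGALG00000039772 on chromosome 3 (36010698 to 36240970, the longest span of the 100) and ENSGALG00000010204 on chromosome 1 (37630176 to 37725697). ENSGALG00000039772 had 8.40 and 11.2 CPM in HH18 DP, 2.77 and 7.55 CPM in HH25 DP and 4.16 and 4.97 CPM in HH18 E2 cells, and 0 counts in HH25 negative and HH10 E2 cells. HH25 DP cells were at least 50.6-fold above HH25 negative cells (adjusted p = 0.0186), a call that ended without HH25 negative library 1 or HH25 DP library 3. ENSGALG00000010204 had 6.18 and 1.62 CPM in HH18 DP cells, 0.158 and 2.96 CPM in HH25 DP and 0 counts in HH25 negative cells. Its next group by the mean of log2 values was HH25 E2 cells, at 2.16 and 1.13 CPM. HH18 E2 cells had 0.723 and 2.90 CPM, a higher mean CPM resting on 1 library. The negative cells of the earlier stages had 0.780 and 1.49 CPM at HH18 and 0.886 and 1.09 CPM at HH10, above the 0.161 and 0.132 CPM of HH10 E2 cells. It was at least 15.3-fold higher in HH25 DP cells (adjusted p = 0.0339), and the call ended without either HH25 negative library or HH25 DP library 3.

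The genes next highest in negative cells were led by ENSGALG00000012550 (chromosome 1, minus strand, 52153748 to 52159902, with 5 exon intervals), the most abundant of the 100 per kilobase of exon, at 610 CPM per kb in HH18 DP cells. It had 980 and 964 CPM in HH18 DP cells, 488 and 710 CPM in HH18 negative and 287 and 322 CPM in HH25 negative cells. The labelled cells of the same stages were lower, with 79.2 and 44.0 CPM in HH18 E2, 97.6 and 90.1 CPM in HH25 E2 and 115 and 97.6 CPM in HH25 DP cells. HH10 cells of both kinds lay between 20.6 and 29.4 CPM. HH18 DP cells were thus the only labelled group above the negative cells of the 2 later stages. HH18 E2 cells were below HH18 negative cells by 3.43 on the log2 scale (log2 fold change -3.43 ± 0.39, adjusted p = 0.00126), and this call held under all 11 alternatives. HH18 exceeded HH10 negative cells by 4.75 ± 0.42 (adjusted p = 7.07e-05). At HH25, E2 cells were below negative cells with a log2 fold change of -1.77 ± 0.37 (adjusted p = 0.0238), a call that ended without HH25 negative library 1, without either HH25 E2 library, with only those 4 libraries and with a replicate block. ENSGALG00000012546, which spans it on the same strand, was at 432 ± 82.3 CPM in HH18 DP and 438 ± 144 CPM in HH18 E2 cells. Whether their exons overlap was not determined. How reads of any shared exon bases were counted is not given, so the counts of both genes may be affected.

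ENSGALG00000004771 (chromosome 21, minus strand, 6083120 to 6085216, with 3 exon intervals) was likewise highest in HH18 DP cells and in the negative cells of both later stages. It had 283 and 240 CPM in HH18 DP, 144 and 111 CPM in HH18 negative and 83.8 and 182 CPM in HH25 negative cells. HH18 E2 cells had 5.60 and 2.95 CPM, HH25 E2 cells 2.26 and 0 CPM, HH25 DP cells 1.03 and 1.79 CPM, and all 4 HH10 libraries 0 counts. HH18 negative cells were at least 2630-fold above HH10 negative cells (adjusted p = 0.00220). HH25 DP cells were below HH25 negative cells by a ratio of 71.6 in pooled counts (57.3 to 90.5, 95% counting interval, adjusted p = 0.00373), and HH25 E2 cells by a ratio of 103 (68.8 to 163, adjusted p = 0.0163). The last ratio rests on 23 counts, all in HH25 E2 library 1, and its call ended with only those 4 libraries and with a replicate block. Its next 2 neighbours on the same strand, ENSGALG00000029669 and ENSGALG00000021569, had 261 and 322 CPM and 241 and 179 CPM in HH18 DP cells. They ranked 8383 and 664, because HH25 negative cells had 318 and 272 CPM of the former and 184 and 195 CPM of the latter.

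ENSGALG00000011668 (chromosome 4, plus strand, 51270481 to 51273558, with 4 exon intervals) had 159 and 60.0 CPM in HH18 DP cells, 62.0 and 51.5 CPM in HH25 negative and 38.2 and 32.5 CPM in HH18 negative cells. Library 2 of HH18 DP cells lay within the range of the HH25 negative cells. It had no count in the E2 cells of any stage, and 0.317 and 3.31 CPM in HH25 DP cells. HH18 E2 cells were at least 488-fold below HH18 negative cells (adjusted p = 0.0167) and HH25 E2 cells at least 393-fold below HH25 negative cells (adjusted p = 0.0111). The former call ended without HH18 negative library 2, without either HH18 E2 library and with a replicate block, and the latter without HH25 E2 library 1 and with a replicate block. HH25 DP cells were at least 12.6-fold above HH25 E2 cells (adjusted p = 0.0485), a call that ended without any 1 of the 4 libraries.

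Its neighbour ENSGALG00000026098 (51283110 to 51286274, plus strand) lies 9551 bases further along and had its 3 highest groups in the same order at lower levels, with 23.2 and 10.5 CPM in HH18 DP, 5.77 and 10.7 CPM in HH25 negative and 6.76 and 6.94 CPM in HH18 negative cells. It was at or below 0.0984 CPM in all E2 libraries. ENSGALG00000002207 on chromosome 8 (2118622 to 2130456) had 14.5 and 19.8 CPM in HH18 DP cells, 8.29 and 6.88 CPM in HH25 negative and 0 counts in HH25 E2 cells. The difference was at least 52.6-fold (adjusted p = 0.0236). That call ended without either HH25 E2 library, with only those 4 libraries and with a replicate block. ENSGALG00000043603 on chromosome 19 (395344 to 396508) had 14.9 and 33.0 CPM in HH18 DP, 11.2 and 6.20 CPM in HH18 negative and 6.42 and 5.24 CPM in HH25 negative cells, and 0 counts in every other library. It was at least 179-fold higher in HH18 than in HH10 negative cells (adjusted p = 0.0459) and at least 97.3-fold lower in HH25 DP than in HH25 negative cells (adjusted p = 0.0134). The former call ended without any 1 of its 4 libraries, and the latter without HH25 DP library 3.

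**Figure D3:**
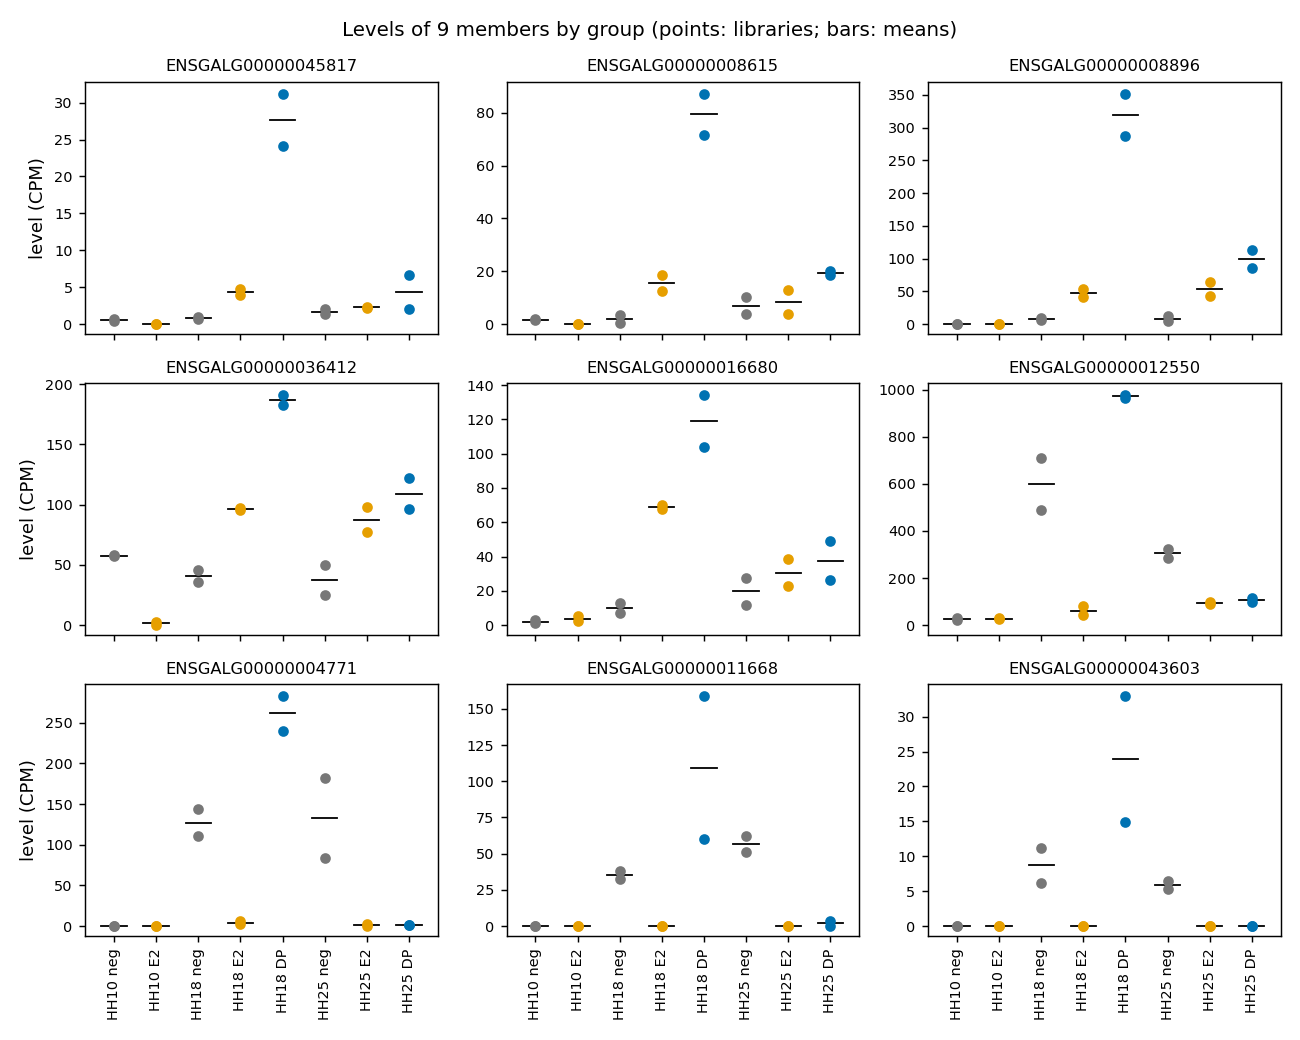
Levels of 9 of the 100 genes (vertical axis, CPM, a linear scale of its own in each panel) in the 8 groups (horizontal axis), with a point for each library and a bar for each group's mean. The first 5 genes, ENSGALG00000045817 to ENSGALG00000016680, have their next highest level in labelled cells of HH18 or HH25, and the last 4, ENSGALG00000012550 to ENSGALG00000043603, in negative cells.

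The relation of the 100 genes to the other cell groups was tested in the 14 libraries without HH18 DP cells, which took no part in the fit. The other groups entered the choice of genes through the highest of their means, so these contrasts are not wholly independent of it. Of the 100 genes, 81 passed the filter on low counts in those 14 libraries and were tested among 14572 genes. The other 19 were too low outside HH18 DP cells to be tested. Of the 81 genes, 17 were called in at least 1 of the 6 contrasts. The share of all genes called in at least 1 contrast was not counted, so nothing is read from the 17. In HH25 DP against negative cells alone, 14.4% of all genes tested were called higher and 10.6% lower.

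Between HH18 E2 and negative cells, 0 of the 81 genes were higher and 2 lower in E2 cells (ENSGALG00000012550 and ENSGALG00000011668), beside 0.0412% and 0.741% of all genes tested. At an unadjusted p below 0.05 there were 22 in either direction (27.2%, beside 8.73% of all genes), and DESeq2 called 2 higher and 9 lower, beside 0.556% and 2.81% of all genes. Their median log2 fold change was -1.66, or -1.58 with genes at 0 in a group set to their bound, beside 0.01 over all genes tested. Counting libraries among all 100 genes, both HH18 negative libraries lay above both HH18 E2 libraries in 40 genes, beside 18.3% of all genes with a count in HH18 DP cells. Both E2 libraries lay above in 17 genes, beside 31.0%.

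At HH25, DP cells were higher than negative cells in 3 genes and lower in 5, beside 14.4% and 10.6% of all genes tested. The 3 higher genes were ENSGALG00000039772, ENSGALG00000010204 and ENSGALG00000008896 (99.2 ± 19.2 against 8.03 ± 5.49 CPM, adjusted p = 0.0221). The call of ENSGALG00000008896 ended without HH25 negative library 1 or either HH25 DP library. The median log2 fold change was -0.30, beside 0.19 over all genes. HH25 E2 cells were lower than negative cells in 4 genes and higher in 0, beside 1.16% and 2.09%, with a median of -0.20 beside 0.00; 16 genes had an unadjusted p below 0.05 in either direction (19.8%, beside 19.3% of all genes), and DESeq2 called 3 higher and 10 lower, beside 6.28% and 4.17%. Between HH25 DP and E2 cells 1 gene was called higher and 0 lower in DP cells, beside 4.50% and 2.93%, with a median of 0.24 beside 0.17; 6 genes had an unadjusted p below 0.05 (7.41%, beside 27.2% of all genes), and DESeq2 called 4 higher and 0 lower, 4.94% of those tested beside 20.6% of all genes. DESeq2 size factors in place of TMM moved the median of all genes by -0.15 in HH25 DP against negative and by -0.11 in HH25 DP against E2 cells. Relative to all genes, the medians of the chosen genes were -0.49 and 0.07 with TMM and -0.50 and 0.09 with size factors.

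With stage, all genes called by edgeR were higher at HH18. The score favours genes that are low in the other groups, those of HH10 included, so nothing is read from this direction. From HH10 to HH18, 11 genes were higher and 0 lower in E2 cells, beside 4.30% and 1.38% of all genes tested, and 7 were higher and 0 lower in negative cells, beside 2.05% and 0.590%. At an unadjusted p below 0.05 there were 32 in E2 cells (39.5%, beside 24.3% of all genes) and 18 in negative cells (22.2%, beside 15.2%), in either direction. DESeq2 called 20 higher and 2 lower in E2 cells, beside 9.61% and 6.09% of all genes, and 13 higher and 0 lower in negative cells, beside 5.27% and 2.62%. Their median log2 fold change was 3.49 in E2 cells, or 1.89 with genes at 0 in a group set to their bound, beside 0.07 over all genes, and 1.88 in negative cells beside -0.05. In E2 cells 44 of the 81 genes were at 0 in 1 or both groups, so that the fitted median depends on how such genes are treated. In a fit of only the 4 E2 libraries, 45 of the chosen genes were tested and 0 were called between the stages. That fit also called few of all genes, at 0.219% against 5.68% in the fit of 14 libraries. The 0 is therefore not read as a result about the chosen genes. Electroporation time changed with stage. The HH10 E2 libraries had counts for 11693 and 13010 genes, against 14000 and 14671 in the HH18 E2 libraries. The part of either in the differences between stages was not tested.

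**Figure D4:**
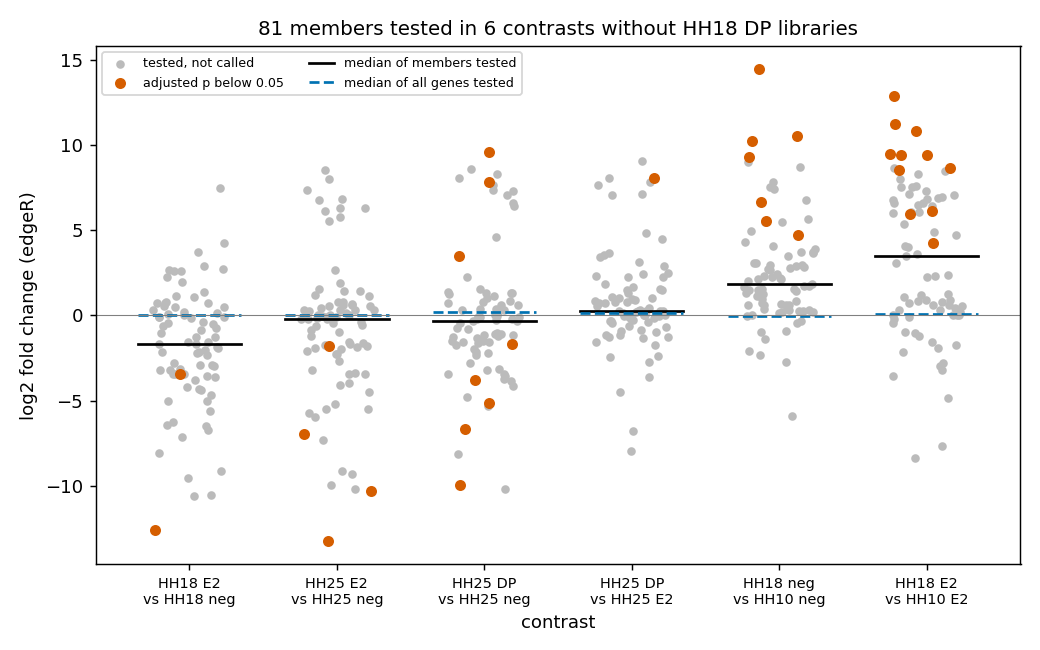
Log2 fold change (vertical axis, edgeR) of the 81 genes tested in 6 contrasts (horizontal axis) that leave out the HH18 DP libraries, with called genes in orange, the median of the 81 genes as a solid line and that of all 14572 genes tested as a dashed line. The median of the 81 genes lies below 0 for HH18 E2 against negative cells (-1.66), above 0 for HH18 against HH10 E2 cells (3.49) and near that of all genes for HH25 DP against E2 cells (0.24 beside 0.17).

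The same double gate was sorted again at HH25, where most of these genes were low. Both HH25 DP libraries lay below both HH18 DP libraries in 78 of the 100 genes, beside 19.2% of all genes with a count in HH18 DP cells, and nothing is read from that contrast since the rule used it. The medians over the genes were 0.554 and 1.33 CPM in the HH25 DP libraries, against 13.1 and 5.01 CPM in the HH18 DP libraries. The highest HH25 DP means were those of ENSGALG00000036412 (109 ± 18.2 CPM) and ENSGALG00000012550 (106 ± 12.0 CPM). No count was found in either HH25 DP library for 13 genes, ENSGALG00000043603 and ENSGALG00000016661 among them.

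In HH10 E2 cells 58 of the 100 genes had no count in either library, beside 11.3% of all genes with a count in HH18 DP cells. The same was true of 15 genes in HH18 E2 cells, beside 3.40%, and of 25 genes in HH25 E2 cells, beside 5.25%. The score favours genes that are low in the other 7 groups, so nothing is read from these shares. A floor of 3 counts per library was 0.242 and 0.0662 CPM in the HH10 E2 libraries, so an expected level under that can go without a single count there. No HH10 library had a count for 12 of the genes.

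By position the genes were spread over 24 chromosomes, with 15 on chromosome 1, 11 each on chromosomes 2 and 3, and 10 on chromosome 4, beside 14.4%, 9.14%, 8.64% and 7.79% of the genes with a count in HH18 DP cells. Their annotated span had a median of 7044 against 11104 bases, a median exonic length of 1537.5 against 1860 bases and a median of 5 against 8 exon intervals. A single exon interval was annotated for 10.0% against 5.33%. Over all 23315 genes ranked, the medians were 5366 bases of span, 1410 bases of exon and 5 exon intervals, and 12.8% had a single interval. The direction of these differences therefore depends on the set compared. Strand was even, with 49 genes on the plus strand. Spans ran from 110 to 230273 bases, and 15 genes overlapped another gene of the table, 11 of them one on the other strand.

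In 4 pairs the genes were direct neighbours with no other gene of the table between them. One is the pair on chromosome 4 above. On chromosome 19, ENSGALG00000034478 (389572 to 391141, plus strand) lies 4202 bases from ENSGALG00000043603 on the minus strand, and had 8.21 and 5.22 CPM in HH18 DP and 3.77 and 0.992 CPM in HH18 negative cells. Unlike its neighbour, it was listed at 0 in HH25 negative cells and had 1.35 and 2.27 CPM in HH25 DP cells. On chromosome 3, ENSGALG00000041583 (107687133 to 107692737) lies 15283 bases before ENSGALG00000016661 (107708021 to 107727966), both on the plus strand. ENSGALG00000016661 had 30.4 and 30.7 CPM in HH18 DP, 9.88 and 9.67 CPM in HH18 negative and 0 and 14.3 CPM in HH25 negative cells, and no count in HH25 E2 or HH25 DP cells. ENSGALG00000041583 was low throughout, with 1.57 and 0.522 CPM in HH18 DP cells, or 17 and 10 counts.

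The last pair, on chromosome 20, overlaps on opposite strands. ENSGALG00000025778 (10002668 to 10007876, plus strand) had 11.6 and 9.97 CPM in HH18 DP cells, above all other libraries, and 3.25 and 2.98 CPM in HH18 negative cells. ENSGALG00000029485 (10002609 to 10005509, minus strand) had 31.8 and 41.7 CPM in HH18 DP cells, but 53.6 CPM in HH25 negative library 2 and 0 in library 1. It is the 1 gene in which neither HH18 DP library lay above all others. Whether their exons overlap was not determined and the strand setting is not given. Reads of any shared exon bases may thus be mixed, and the members of this pair may not be 2 independent measurements.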

How the data were processed

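The authors deposited raw read counts per gene for 16 libraries, whole numbers with no normalization; the submitters' processing notes list galGal5, featureCounts, DESeq2, STAR 2.4.2a and Subread 1.4.5, without settings. Per the labels' protocols, RNA of sorted cells was amplified with a low-input full-length kit. Of the columns, 10 matched 1 sample and 6 matched a group only. CPM were computed here from column sums.

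A single model of the 14 libraries without HH18 DP cells (7 groups, leaving 7 degrees of freedom) was fitted in edgeR 4.0.16 under R 4.3.3, with TMM scaling and filterByExpr, and 6 contrasts were tested by quasi-likelihood with Benjamini-Hochberg adjustment over all genes tested (threshold 0.05). Where a group had 0 counts, the fold is a lower bound that gives that group 3 counts, taking the smaller of pooled and mean-based values; intervals and floors cover counting error only, since reads carried no molecular identifiers. Alternatives were other scalings and filters, DESeq2 1.42.0, other sets of libraries, a replicate block and leaving out each library. Named genes were the first 8 by score, the 2 genes on each side of the threshold, in each contrast the 2 highest and 2 lowest log2 fold changes among called genes, neighbouring pairs, and the 2 highest and 2 lowest in HH25 DP cells. The genes, lists and tests were chosen with earlier results of these data known.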

Additional observations from a re-analysis of the deposited data

Results flagged for a closer look

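For 5 of the named genes the difference between E2 and negative cells had opposite signs at 2 stages in every library. How many of all genes do so was not counted, so nothing is read from that number. The values are the later stage's difference minus that of HH10, with each group taken as log2(mean CPM + 1). These changes between stages were not tested. ENSGALG00000036412 gave 5.79 for HH18 and 5.76 for HH25: at HH10 both E2 libraries were below both negative libraries, and at the later stages above. ENSGALG00000008615 gave 3.92 for HH18, and ENSGALG00000045817 gave 2.20 for HH18 and 0.92 for HH25. At HH25 ENSGALG00000045817 had 2.16 and 2.35 CPM in E2 against 2.02 and 1.31 CPM in negative cells. That difference was not called (log2 fold change 0.35, edgeR quasi-likelihood test, adjusted p = 0.916). ENSGALG00000010204 gave 2.20 for HH25. ENSGALG00000025778 went the other way, at -3.07 for HH18, with E2 above negative cells at HH10 and below them at HH18. In HH10 E2 cells ENSGALG00000008615 and ENSGALG00000045817 were listed at 0.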

How the results depend on the processing

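DESeq2 called more of the genes in each contrast: 22 for HH18 against HH10 E2 cells, 11 for HH18 E2 against negative, 13 for HH18 against HH10 negative, 4 for HH25 DP against E2, 15 for HH25 DP against negative and 13 for HH25 E2 against negative. It also called more of all genes, at 15.7%, 3.37%, 7.89%, 20.6%, 34.3% and 10.5% in the same order. With all 16 libraries in the fit the counts were 5 for HH18 E2 against negative, 2 for HH25 DP against E2 and 13 for HH25 DP against negative, beside 0.790%, 6.49% and 23.6% of all genes. With only the 4 libraries compared they were 0 for HH18 against HH10 E2, 22 for HH18 E2 against negative, 24 for HH18 against HH10 negative and 1 for HH25 E2 against negative, beside 0.219%, 5.35%, 15.2% and 0.518% of all genes. Those fits tested 45, 70, 63 and 50 of the chosen genes in the same order. The fit of 14 libraries tested 81 and that of all 16 libraries 89. For these changes the cause was not tested.

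Leaving out 1 library, with the lone library of its group assumed to vary like the other groups, gave 8 to 9 calls for HH18 against HH10 E2, 1 to 2 for HH18 E2 against negative, 3 to 4 for HH18 against HH10 negative, 0 to 1 for HH25 DP against E2, 3 to 8 for HH25 DP against negative (3 when DP library 3 was left out, 5 for DP library 2) and 1 to 6 for HH25 E2 against negative (1 without E2 library 1 and 2 without E2 library 2). The count for HH18 against HH10 negative cells was 4 without HH18 negative library 2 and 3 without each of the other 3 libraries. For HH18 E2 against negative, HH18 against HH10 negative and HH25 DP against E2 cells, each such fit also called fewer of all genes tested. In the other contrasts most of these fits did so. Without HH25 DP library 3 or HH25 E2 library 2, almost none of all genes were called for HH25 DP against E2 cells. The lower counts are therefore not read as a result about the chosen genes.

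Same-numbered libraries did not deviate together across genes (correlation of deviations -0.03 at HH18 and -0.09 at HH25). The labels do not say whether they share embryos or preparation. With 1 difference per group these correlations cannot decide it. A replicate block, possible for E2 against negative cells at HH18 and HH25, gave 1 and 0 calls. Over all 14572 genes it gave 0 higher and 64 lower at HH18, against 6 and 108 without the block. At HH25 it gave 97 higher and 81 lower, against 304 and 169. The single-gene counts below cover only the 2 highest and 2 lowest log2 fold changes among called genes in each contrast. They leave out the call of ENSGALG00000008896 between HH25 DP and negative cells, which was followed above. A setting whose filter removed the gene gave no value and is not counted as a lost call. Of 194 values of the 19 single-gene calls under other settings, 156 kept the call, 38 lost it and 0 changed sign. The fit with all 16 libraries is among these settings.

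Of the 100 genes, 62 were chosen again with a pseudocount of 0.1 and 50 with the lower HH18 DP library set against the highest other library; without HH18 DP library 1 or 2 it was 43 or 50. In all, 15 were chosen under each of the 7 other rules. Depth limits the low genes: 33 of the 100 had a mean under 5 CPM in HH18 DP cells.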
